A study of Mus musculus with 6 samples.

Results

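This comparison sets 2 conditions of a study of mouse tailbud mesoderm progenitor cells side by side: cells collected at the start, and cells given recombinant human BMP4 (rhBMP4) for 5 h after 96 h of culture. They are 2 of the 6 libraries of the study, each condition has 1 library, and the pair was taken by their labels. Both came from the C57BL/6 strain. The 0 h library had no culture time and no growth factor. By its labels the BMP4 5 h library had 101 h in culture in all, in medium with serum, over feeder fibroblasts (MEFs, from mouse embryos) that mitomycin C had kept from dividing. The remaining libraries are untreated cells at 96 h and cells that then had BMP4 alone (11 h), FGF8 added to BMP4 (5 h) or FGF4 added to BMP4 (11 h). No sample of 101 h without BMP4 was analysed, so culture time and BMP4 cannot be told apart in this pair. With 1 library a side there is no replicate check, no p-value is given, and every interval covers counting error only.

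The tailbud is the growing end of the embryo, where progenitors marked by the transcription factors T (Brachyury) and Cdx2 feed the presomitic mesoderm, which turns on Tbx6 and Msgn1 before it segments into somites. BMP4 is a secreted ligand of the TGF-beta superfamily. It binds paired serine and threonine kinase receptors, which phosphorylate SMAD1, SMAD5 and SMAD9. With SMAD4 these switch on target genes such as the Id genes, whose products bind and block other transcription factors. Feeder fibroblasts and other stromal cells make collagens and matrix glycoproteins such as periostin, decorin and thrombospondins. Immediate early genes, Fos and Egr1 among them, are switched on within minutes of serum, growth factors, stretch or tissue dissociation.

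The 0 h library held 219269083 counts and the BMP4 5 h library 218825816, so a gene at 3 counts stood at 0.0137 counts per 1000000 (CPM) in each. The BMP4 values were stored out of line with the gene names and were put back by matching. After that 18693 genes were securely placed, and 13485 of them reached 1 CPM in 1 of the 2 libraries. A gene is called when its level differed at least 2-fold after 0.5 CPM was added to both, and the 95% counting interval of the plain ratio left out 1. Ratios below are BMP4 5 h over 0 h without the added 0.5 CPM, and medians of lists are log2 ratios with it.

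The library labelled BMP4 5 h lay very close to the 0 h library. Of the 13485 genes, 64 were called higher (0.475% of those tested) and 16 lower (0.119%). At a 1.5-fold limit the numbers were 118 (0.875%) and 33 (0.245%). The median log2 ratio was -0.01, and 94.5% of genes lay within 0.25 of 0 on the log2 scale. Against the 96 h untreated library, which by its label stood only 5 h earlier in culture, 334 of 13820 genes were called higher (2.42%) and 482 lower (3.49%). Over the same 13485 genes, 71.95% lay within 0.25 of the 96 h library. Against 0 h, the share within 0.25 was 94.3% for BMP4 with FGF8 at 5 h, 71.9% for BMP4 at 11 h, 58.5% for BMP4 with FGF4 at 11 h and 70.5% for the 96 h untreated library. Both libraries labelled 101 h were thus nearer to 0 h than the libraries labelled 96 h and 107 h were. The culture times are those of the labels and could not be checked against another source here; if they were wrong, every ratio below would compare other times. The cause of their closeness to 0 h was not tested. In bulk RNA, fewer cells of a type and less RNA per cell cannot be told apart.

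**Figure D1:**
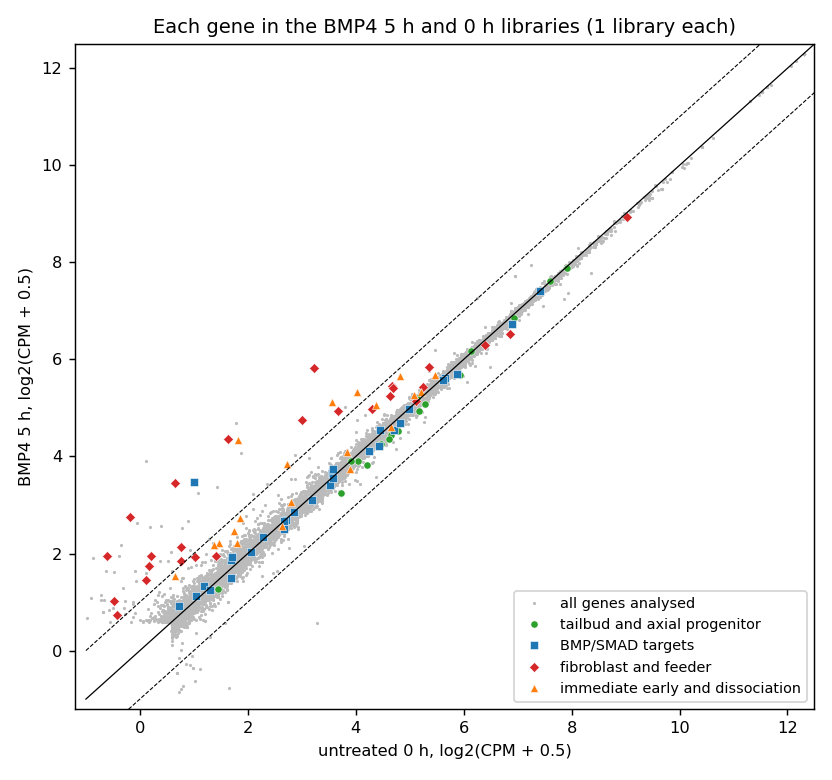
Level of each of the 13485 genes in the 0 h library (x axis) and the BMP4 5 h library (y axis), as log2(CPM + 0.5), with 4 gene lists in colour; the solid line marks equal levels and the dashed lines a 2-fold difference. Members of the tailbud list and most BMP/SMAD targets lie near the line, and most fibroblast and immediate early genes lie above it.

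The genes described first are from those whose counting interval lay farthest above 1, with members of the fibroblast list. Of the 64 genes called higher, 41 were in none of the lists. Under 1 CPM at 0 h were 38 of them, which entered only through the BMP4 5 h library. Lox, a lysyl oxidase that cross-links collagen and elastin, stood at 0.585 CPM at 0 h, 2.26 in 96 h untreated cells, 14.5 after BMP4 for 5 h, 12.8 after BMP4 for 11 h, 8.14 with FGF8 and 21.7 with FGF4. It was 24.7-fold higher in the BMP4 5 h library than at 0 h (interval 20.7 to 29.7). The level after 5 h was also above that of the 96 h cells, which by the labels had the same 96 h of culture. Bgn, the matrix proteoglycan biglycan on chromosome X (GRCm38, chrX:73483602-73495933), went from 2.93 CPM at 0 h to 25.4 in BMP4 5 h, with 10.1 at 96 h (ratio 8.66, interval 7.98 to 9.41).

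Several of these genes were low in both untreated libraries and high in all 4 libraries with BMP4. Those 4 are also the libraries whose columns were put back by matching. The genes were picked for lying above 0 h in BMP4 5 h, so that difference was set by the choice. Mgp, Ltbp2, Thy1 and Lrrtm2 were under 1 CPM at 0 h and entered only through the BMP4 5 h library. Thbs2, a matricellular thrombospondin, read 1.07 CPM at 0 h, 1.27 at 96 h, 10.4 in BMP4 5 h, 7.76 in BMP4 11 h, 4.68 with FGF8 and 12.9 with FGF4. Mgp, the matrix Gla protein that inhibits calcification, read 0.640, 0.324, 5.36, 3.58, 2.97 and 3.84 CPM in the same order. Ltbp2, a fibrillin-binding latent TGF-beta binding protein, read 0.283, 0.537, 4.0003, 3.47, 1.83 and 4.35 CPM. For these 3 genes every library with BMP4 was above both untreated libraries. Thy1, a surface protein of fibroblasts and other stromal cells, showed the same order with 0.658 and 0.419 CPM without BMP4 and 3.36, 3.09, 2.96 and 7.37 CPM with it. Col12a1, a fibril-associated collagen chain, read 3.18 and 4.28 CPM without and 16.3, 20.8, 10.1 and 28.5 CPM with BMP4. Lrrtm2, a leucine-rich repeat protein of synapses, was chosen after its values were seen. It had 11 counts at 0 h and 719 in BMP4 5 h, or 0.0503 against 3.25 CPM. It read 0.0662 CPM at 96 h and 2.92, 2.97 and 3.25 CPM in the other BMP4 libraries. Whether its reads came from Lrrtm2 or from a gene overlapping it was not tested.

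In a second set the 96 h untreated library was the higher one. Postn, the stromal matricellular protein periostin, read 2.60 CPM at 0 h, 101 at 96 h, 20.02 in BMP4 5 h, 47.8 in BMP4 11 h, 12.2 with FGF8 and 137 with FGF4 (ratio 7.71, interval 7.06 to 8.43). Tnc, the matrix glycoprotein tenascin C, read 1.499, 18.4, 10.7, 16.0, 6.71 and 56.8 CPM in that order. Dcn, the collagen-binding proteoglycan decorin, read 0.155, 6.67, 3.34, 4.19, 2.25 and 11.1 CPM, and Lum, the related proteoglycan lumican, 0.247, 30.1, 1.17, 13.3, 0.915 and 43.8 CPM. The BMP4 5 h library lay between the 0 h and 96 h libraries for each of these genes. Fibrillar collagens are the main protein of connective tissue. Among them Col5a2 was called higher, with 13.4 CPM at 0 h, 31.8 in BMP4 5 h and 51.1 at 96 h (ratio 2.38). Col3a1 and Col1a1 differed less. Col3a1 stood at 25.4 CPM at 0 h and 42.3 in BMP4 5 h against 251 at 96 h (ratio 1.67, interval 1.61 to 1.72), and Col1a1 at 19.2 and 31.2 against 190 CPM.

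**Figure D2:**
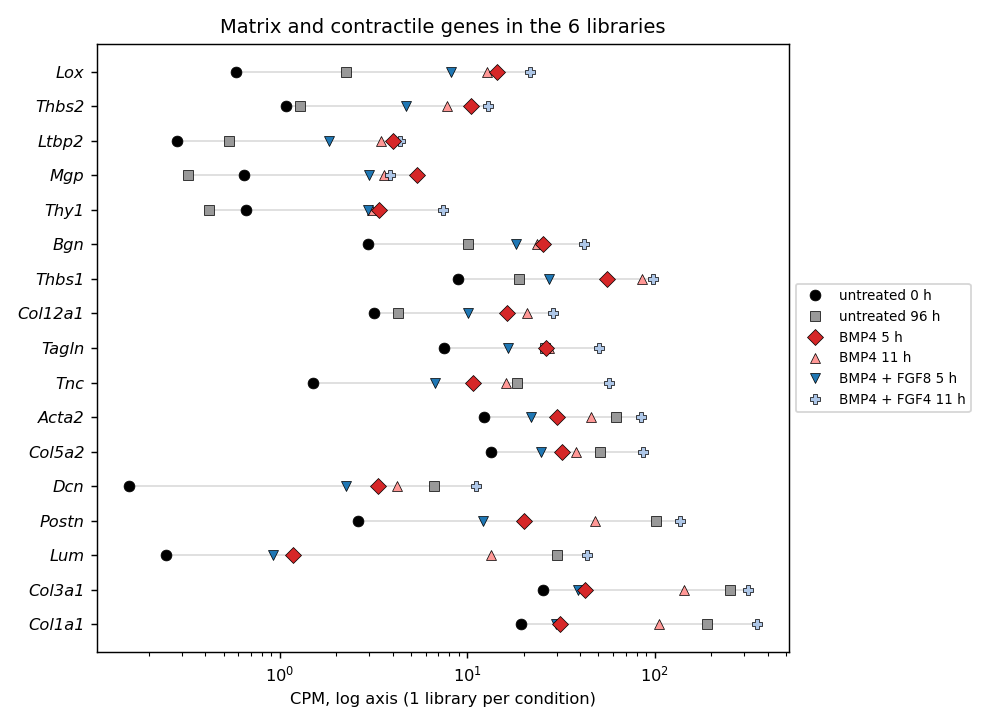
CPM on a log axis for 17 matrix and contractile genes, 1 point per library, joined by a grey line over the range. From Lox to Tagln the BMP4 5 h point lies to the right of both untreated points, and from Tnc down it lies between the 0 h and 96 h points.

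The fibroblast and feeder list holds 28 genes, of which 27 were placed and 26 reached 1 CPM in 1 of the 2 libraries. Of these, 14 were called higher, 0 were called lower and 19 passed 1.5-fold. Over all genes 0.475% were called higher and 0.119% lower at 2-fold, and 0.875% higher at 1.5-fold. The members' median log2 ratio was 1.12, beside -0.01 over all genes. Since 7 of the 14 were under 1 CPM at 0 h, they entered only through the library in which they were high. Among genes with at least 1 CPM at 0 h, 7 of 19 members were called higher, beside 26 of 13289 genes (0.196%) higher and 16 (0.120%) lower, and the members' median was 0.73. These 7 were Col6a1, Acta2, Loxl1, Tagln, Thbs1, Postn and Thbs2. Of the 14 called, 7 were above the 96 h untreated level and 7 below it. Of the 26 members 23 were above their 0 h level and 3 below it, the lowest at a log2 ratio of -0.35. Among general mesenchymal members, Pdgfra, a growth factor receptor of mesoderm and fibroblasts, read 83.9 CPM at 0 h and 78.0 in BMP4 5 h. Fn1, the adhesive matrix protein fibronectin, read 523 and 492 CPM. The summed level of the list was 970 CPM at 0 h, 1627 at 96 h and 1127 in BMP4 5 h. The part of feeder cells in these values was not tested.

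The genes called higher included 4 of the contractile apparatus of smooth muscle, picked after their values were seen; Tagln, Acta2 and Cnn1 are counted in the fibroblast list above. Tagln, the actin-binding protein transgelin, read 7.51 CPM at 0 h, 25.9 at 96 h, 26.4 in BMP4 5 h, 27.3 in BMP4 11 h, 16.5 with FGF8 and 50.7 with FGF4. Acta2, the smooth muscle actin, stood at 12.3 CPM at 0 h, 62.5 at 96 h and 30.0 in BMP4 5 h. Cnn1, or calponin, stood at 0.576, 2.56 and 2.26 CPM, and Actg2, the enteric smooth muscle actin, at 0.169, 0.923 and 1.28 CPM in the same order. Thbs1, a thrombospondin that can activate latent TGF-beta, read 8.91 CPM at 0 h, 18.8 at 96 h and 55.9 in BMP4 5 h (ratio 6.27, interval 5.98 to 6.58). Other secreted or surface proteins called higher were the phosphoprotein osteopontin, Spp1 (0.466 to 5.73 CPM, ratio 12.3, interval 10.0 to 15.2), and Gas6, a ligand of TAM receptors (0.818 to 5.40 CPM).

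The immediate early list had the second highest median. Of the 23 genes in that list 21 were placed and 20 reached 1 CPM. Of these, 4 were called higher at 2-fold, 11 at 1.5-fold and 0 lower at either, with a median log2 ratio of 0.70. Over all genes 0.475% were called higher at 2-fold and 0.875% at 1.5-fold, and the median was -0.01. Fosb, an AP-1 subunit, read 3.05 CPM at 0 h, 6.402 at 96 h, 19.8 in BMP4 5 h, 16.1 in BMP4 11 h, 18.6 with FGF8 and 37.3 with FGF4 (ratio 6.50, interval 5.99 to 7.06). Fos, its relative, read 11.3, 16.6, 34.4, 38.4, 38.7 and 55.3 CPM. Egr1, a zinc finger factor induced by ERK signalling, read 15.7, 17.98, 39.7, 47.0, 42.3 and 78.3 CPM. For all 3 genes both untreated libraries lay below all 4 libraries with BMP4, which are also the 4 whose columns were put back by matching. Ctgf, a matricellular protein induced by TGF-beta and by YAP, was the fourth gene called (6.14 to 14.0 CPM). Past 1.5-fold came Jun (20.3 to 33.0 CPM) and Junb (2.86 to 5.01), partners of Fos, the nuclear receptor Nr4a1 (3.12 to 6.14), the stress factor Atf3 (1.07 to 2.41), Klf4, Zfp36 and Cyr61. Dusp1 and Ier2, which are induced with them in many settings, read 6.45 and 7.85 CPM and 33.3 and 37.9 CPM, and passed neither limit. Egr2 and Egr3 were not securely placed in this column and have no value.

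Sequences just before the start are shown for 4 genes called higher, from the immediate early list (Fos, Fosb), the fibroblast list (Postn) and no list (Anxa1), 3 of which hold the letters TATAAA described here. Of the 64 genes called higher, 38 have a promoter window in RefSeq (GRCm38.p6; 250 bases before to 50 after the start). The letters TATAAA, searched on the gene's strand from 11 to 50 bases before the start, occurred in 4 of the 38 (10.5%), namely Anxa1, Fos, Gper1 and Postn, and in 153 of 9849 genes analysed (1.55%). A CArG box, which binds SRF, was found on either strand in 0 of 38 windows and in 155 of 9849 (1.57%). The palindromic letters TGANTCA, an AP-1 site, were found in 3 of 38 (7.89%), Col6a1, Lmna and Osmr, and in 556 of 9849 (5.65%). These matches describe letters in a window and nothing more, and the choice of motifs was made after the calls were known. Shown are the 100 bases before the start, 5′ to 3′ on the gene's strand, with TATAAA in capitals, for Fos (chr12:85473790-85473889, plus strand), Postn (chr3:54361007-54361106, plus strand), Anxa1 (chr19:20390672-20390771, minus strand) and, without the match, Fosb (chr7:19310046-19310145, minus strand).
Fos: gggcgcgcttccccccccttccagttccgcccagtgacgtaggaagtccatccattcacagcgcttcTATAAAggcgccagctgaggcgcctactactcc
Postn: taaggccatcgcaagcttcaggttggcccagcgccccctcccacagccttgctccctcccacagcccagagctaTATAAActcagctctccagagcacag
Anxa1: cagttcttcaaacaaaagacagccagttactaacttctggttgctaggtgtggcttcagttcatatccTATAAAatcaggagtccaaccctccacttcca
Fosb: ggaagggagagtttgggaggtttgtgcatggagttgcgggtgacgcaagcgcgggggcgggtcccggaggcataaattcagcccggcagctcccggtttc
The capitals begin 33 bases before the start in Fos, 26 in Postn and 32 in Anxa1.

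The canonical targets of BMP signalling were at nearly the same level in both libraries. Id1, an inhibitor of basic helix-loop-helix factors (GRCm38, chr2:152736251-152737410), read 31.1 CPM at 0 h, 26.5 at 96 h, 30.8 in BMP4 5 h, 31.5 in BMP4 11 h, 34.9 with FGF8 and 30.5 with FGF4. Its ratio was 0.993, with a counting interval of 0.960 to 1.03. Id2 read 49.8, 57.3, 48.7, 73.8, 51.9 and 59.1 CPM, and Id3 48.8, 50.03, 47.4, 64.9, 50.8 and 53.8 CPM. The BMP4 5 h library had the lowest level of the 6 for both Id2 and Id3. The homeobox genes Msx1 and Msx2 had ratios of 0.919 (interval 0.886 to 0.953) and 0.920 (0.868 to 0.975). The inhibitory SMADs that dampen the pathway, Smad6 and Smad7, read 11.5 and 11.4 CPM at 0 h and 11.3 and 12.9 in BMP4 5 h, and Smad7 read 35.1 in BMP4 11 h. Bambi, a decoy receptor, read 21.1 CPM at 0 h and 18.2 in BMP4 5 h. Of 34 listed targets 31 were placed and 30 reached 1 CPM, of which 1 was called higher, Tnc, also a gene of fibroblasts, and 0 lower. The list's median was -0.02, beside -0.01 over all genes, of which 0.475% were called higher and 0.119% lower.

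Ligands, antagonists, receptors and SMADs of the pathway differed little. Bmp4 itself read 21.5 CPM at 0 h, 21.8 at 96 h, 18.1 in BMP4 5 h, 24.4 in BMP4 11 h, 21.1 with FGF8 and 21.9 with FGF4. Of 20 ligands and antagonists 0 were called at 2-fold, 15 lay below their 0 h level, and the median was -0.12. Nbl1, a DAN family antagonist, was the exception at 1.5-fold, with 1.22 CPM at 0 h and 2.32 in BMP4 5 h, and 2.33 at 96 h. Of 23 receptors and SMADs 0 were called and the median was 0.04. As only 0.475% of all genes were called higher and 0.119% lower, 0 calls set neither list apart. Bmpr1a, a type I receptor, read 81.8 and 81.7 CPM, and Smad1, a signal transducer, 21.7 and 22.1. Tgfbr2, the type II TGF-beta receptor, had the highest ratio, from 1.98 to 3.15 CPM, with 5.67 CPM at 96 h.

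**Figure D3:**
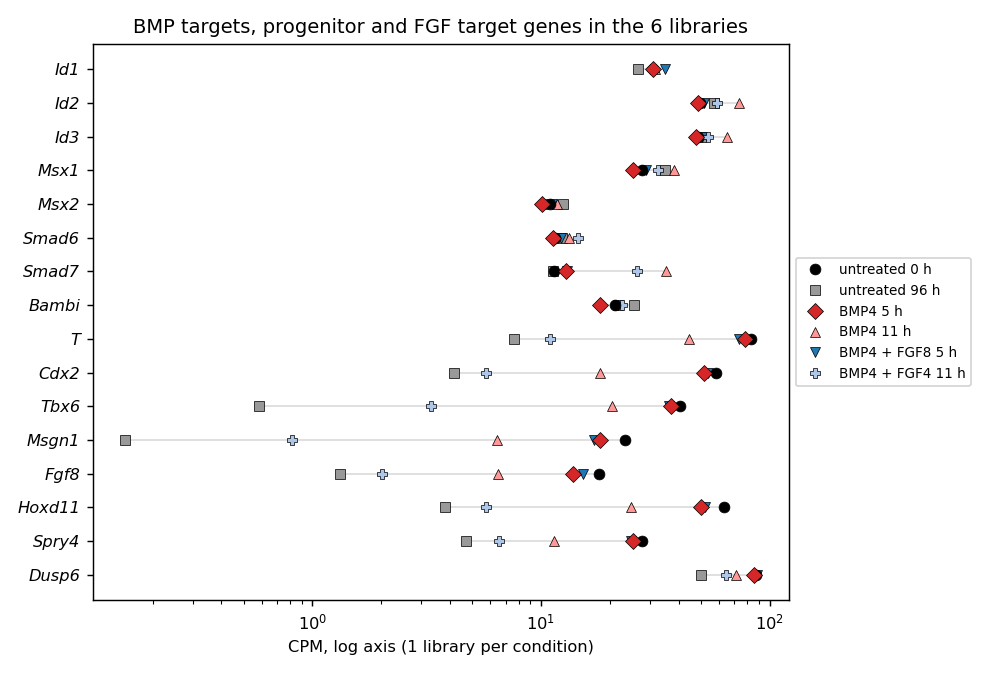
CPM on a log axis for 8 BMP pathway targets and 8 progenitor, presomitic and FGF target genes, 1 point per library. The BMP4 5 h and 0 h points nearly coincide for most genes, and for T, Cdx2, Tbx6, Msgn1, Fgf8, Hoxd11 and Spry4 the 96 h untreated point lies far to the left.

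Progenitor and presomitic genes, which were low in the 96 h untreated library, were near their 0 h level. T (GRCm38, chr17:8434423-8442496) read 83.3 CPM at 0 h, 7.65 at 96 h, 77.8 in BMP4 5 h, 44.4 in BMP4 11 h, 73.4 with FGF8 and 10.9 with FGF4. Cdx2 read 58.4, 4.16, 51.5, 18.1, 53.7 and 5.73 CPM, and Tbx6 40.7, 0.585, 37.2, 20.4, 36.2 and 3.30 CPM. Msgn1 read 23.2, 0.151, 18.2, 6.44, 17.1 and 0.817 CPM. In each, the 2 libraries labelled 5 h came next below the 0 h library. The counting intervals of all 4 ratios were below 1: 0.933 for T (0.914 to 0.953), 0.881 for Cdx2 (0.859 to 0.903), 0.913 for Tbx6 (0.886 to 0.941) and 0.785 for Msgn1 (0.753 to 0.818). At this depth such intervals are narrow, and the spread between replicates is not known.

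Lists of the posterior embryo leaned low without a 2-fold call, beside 0.475% of all genes called higher and 0.119% lower. Of 21 tailbud genes 17 were below their 0 h level, the median was -0.18 and 0 were called. Sp5, a WNT target, was lowest (12.8 to 9.004 CPM), followed by Fgf8, the growth factor of the tailbud (17.9 to 13.7 CPM). Of 24 presomitic genes 19 were below 0 h, with a median of -0.10 and 0 called. The most posterior Hox genes, of groups 10 to 13, had all 10 measured members below 0 h, with a median of -0.27 and a range from -0.35 to -0.09. Hoxd11 read 63.0 CPM at 0 h, 50.3 in BMP4 5 h and 3.81 at 96 h. In all 21 intermediate mesoderm genes the level was below 0 h, with a median of -0.18. Among them were the kidney regulators Pax2 (52.7 to 42.2 CPM, with 0.776 at 96 h) and Wt1 (12.3 to 9.30 CPM). By comparison, 55.3% of all genes were below 0 h. So were 19 of 23 ribosomal protein, 21 of 27 cholesterol synthesis, 18 of 25 glycolysis and 20 of 28 cell cycle genes. The shares of tailbud and presomitic genes below 0 h were thus not particular to them. Medians of those other lists were nearer that of all genes (-0.01), from -0.05 to -0.03. At 1.5-fold the only genes of the WNT and Hox lists called were Dkk1, a WNT antagonist (16.5 to 10.2 CPM, with 2.19 at 96 h), and Hoxb6 (20.1 to 11.4 CPM, with 13.7 at 96 h), both lower.

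FGF and ERK targets were level apart from the immediate early genes. Of 24 genes 2 were called higher, Egr1 and Fos, which are also in the immediate early list, and the median was -0.02. The shares among all genes were 0.475% called higher and 0.119% lower. Spry4, a feedback inhibitor of ERK, read 27.8 CPM at 0 h, 4.69 at 96 h, 25.3 in BMP4 5 h, 11.4 in BMP4 11 h, 24.7 with FGF8 and 6.53 with FGF4. Dusp6, the ERK phosphatase, read 87.2, 50.1, 85.9, 71.0, 88.3 and 64.7 CPM, and Etv4, an ETS factor, 37.2, 8.31, 34.9, 20.6, 35.1 and 9.53 CPM. In all 3 both 5 h libraries stood beside the 0 h library, with ratios for BMP4 5 h of 0.911 (Spry4), 0.985 (Dusp6) and 0.940 (Etv4). Of 15 retinoic acid genes 1 was called. Cyp26b1, which degrades retinoic acid (GRCm38, chr6:84571414-84593908), read 6.83 CPM at 0 h, 3.23 at 96 h, 15.8 in BMP4 5 h, 4.89 in BMP4 11 h, 11.8 with FGF8 and 4.03 with FGF4. It was the highest in both 5 h libraries (ratio 2.31, interval 2.17 to 2.45). Its relative Cyp26a1, a tailbud gene, read 35.6 CPM at 0 h and 30.1 in BMP4 5 h against 1.71 at 96 h.

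**Figure D4:**
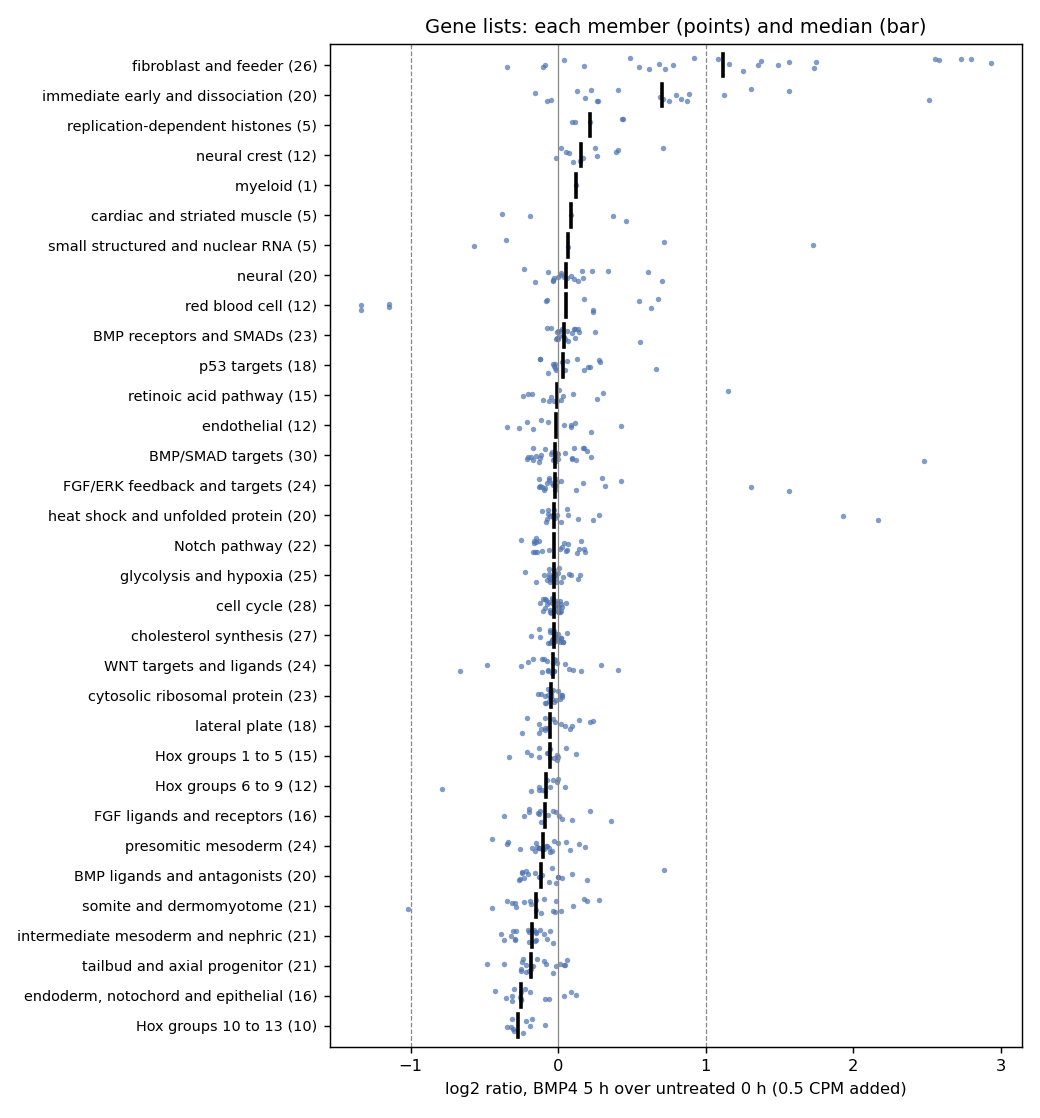
Log2 ratio of BMP4 5 h over 0 h for every member of 33 gene lists that reached 1 CPM in 1 of the 2 libraries (points) and the list median (bar), with the number of members in parentheses; dashed lines mark a 2-fold difference. The fibroblast list (median 1.12) and the immediate early list (0.70) have the highest medians, and Hox groups 10 to 13 (-0.27) the lowest.

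Markers of other cell types were compared next. At 2-fold, 0.475% of all genes were called higher and 0.119% lower, so 0 calls in a short list say little about it. Of 12 endothelial genes 0 were called. Cdh5, the endothelial cadherin, read 1.25 CPM at 0 h and 1.02 in BMP4 5 h against 21.1 at 96 h. Hand1, a lateral plate factor, read 1.56 and 1.70 CPM against 31.5 at 96 h, and 0 of 18 lateral plate genes were called. Of 16 placed myeloid genes only Cd68 reached 1 CPM, and Ptprc, which marks all white blood cells, had 0 counts in both libraries, which allows up to 0.0137 CPM. Of 16 endoderm, notochord and epithelial genes 13 were below 0 h (median -0.25), among them Cdh1, the epithelial cadherin (19.7 to 15.3 CPM). Of 12 neural crest genes 11 were above 0 h (median 0.16), and Sox10, which specifies glia and pigment cells, was highest (3.28 to 5.68 CPM). Zic1, a neural zinc finger factor, passed 1.5-fold (4.31 to 6.86 CPM, with 22.8 at 96 h). In the somite list 1 of 21 genes was called, Scx, a tendon progenitor factor, with 2.5003 CPM at 0 h and 0.981 in BMP4 5 h, and 2.03 to 2.53 CPM in the other 4 libraries. Scx lies at chr15:76457452-76459458 inside Bop1, on the opposite strand.

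Among blood genes, embryonic and adult beta globins differed in opposite directions. The embryonic globins, made by primitive red cells, were higher in BMP4 5 h than at 0 h: Hba-x read 1.80 CPM at 0 h, 309 at 96 h, 3.06 in BMP4 5 h, 311 in BMP4 11 h, 18.7 with FGF8 and 241 with FGF4. Hbb-bh1 read 1.72 and 3.06 CPM at 0 h and BMP4 5 h, and Hbb-y 2.38 and 3.70. Hba-x and Hbb-bh1 passed 1.5-fold. The adult beta globins were lower: Hbb-bs read 1.48 CPM at 0 h, 24.5 at 96 h, 0.285 in BMP4 5 h, 19.0 in BMP4 11 h, 0.551 with FGF8 and 15.1 with FGF4. The 4 adult beta globin names called lower hold only 2 distinct sets of values, Hbb-b1 with Hbb-bs and Hbb-b2 with Hbb-bt. They are therefore not 4 separate observations. Of these names only Hbb-bs and Hbb-bt were given a position by the annotation used here. Near-identical copies could also share reads. Their place in the column was held by a margin below the stricter limit used as an alternative. Hba-a1, the adult alpha globin, read 6.90 CPM at 0 h and 8.24 in BMP4 5 h, and Alas2, the haem synthesis enzyme of red cells, read 2.31 and 2.15 CPM.

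The labels do not give the sex of the embryos. Xist, the RNA that coats the inactive X of female cells, read 124 CPM at 0 h, 79.6 at 96 h, 211 in BMP4 5 h, 113 in BMP4 11 h, 204 with FGF8 and 207 with FGF4. The Y-linked genes were lower in BMP4 5 h: Ddx3y read 19.5 and 14.2 CPM, Eif2s3y 15.7 and 10.8, Kdm5d 15.3 and 10.99, and Uty 14.2 and 10.3. Xist was higher and all 4 Y-linked genes were lower in this library than at 0 h. Their part in the other differences was not tested. Tsix, antisense to Xist, read 124 and 211 CPM, nearly the same as Xist in each, so counts of a gene and its antisense partner cannot be told apart here.

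**Figure D5:**
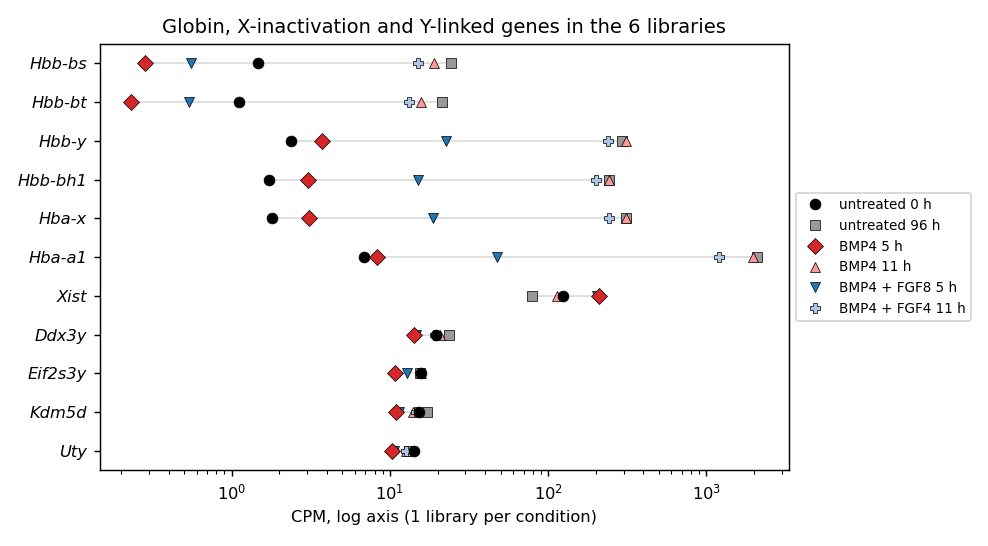
CPM on a log axis for globin genes, Xist and 4 Y-linked genes, 1 point per library. The BMP4 5 h point is the leftmost for both adult beta globins (Hbb-bs, Hbb-bt) and all 4 Y-linked genes, and lies just right of the 0 h point for the embryonic globins.

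Stress and housekeeping groups were otherwise level. Of 20 heat shock and unfolded protein genes 2 were called, Hspa1a and Hspa1b, the inducible HSP70 pair on chromosome 17, which are near-identical copies and count as uncertain singly. Hspa1a read 1.60 CPM at 0 h, 6.91 at 96 h, 8.94 in BMP4 5 h, 42.4 in BMP4 11 h, 3.15 with FGF8 and 115 with FGF4. Hspa5, the chaperone of the endoplasmic reticulum, read 366 and 358 CPM at 0 h and BMP4 5 h. Of 18 p53 targets 0 were called, and Cdkn1a, the cell cycle inhibitor p21, was highest (6.81 to 11.1 CPM). No gene was called in the cell cycle (28 genes, median -0.03), glycolysis (25, -0.03), cholesterol synthesis (27, -0.03) and ribosomal protein (23, -0.05) lists. With 0.475% of all genes called higher and 0.119% lower, 0 calls do not set these lists apart. Neat1, a nuclear scaffold RNA, was called higher (0.439 to 2.60 CPM), and Malat1, its neighbour, read 44.0 and 72.6 CPM.

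Among genes called lower, Scd4, a fatty acid desaturase (GRCm38, chr19:44333092-44346743), was the only protein-coding gene named by the rule of counting interval and level. It read 9.25 CPM at 0 h, 7.04 at 96 h, 0.985 in BMP4 5 h, 9.88 in BMP4 11 h, 8.14 with FGF8 and 0.933 with FGF4 (ratio 0.107, interval 0.0922 to 0.123). Its level took only high or low values, and the low ones were those of BMP4 5 h and BMP4 with FGF4. Of the 16 genes called lower, which count the adult beta globins under 4 names, 13 were under 2 CPM at 0 h and 9 were placed with the wider margin. The genes nearest the 2-fold limit were Myof, a membrane repair protein (log2 ratio 1.00), and Mid1, a microtubule-associated ubiquitin ligase (1.02), on the higher side, and Scx (-1.02) on the lower.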

How the data were processed

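RNA was sequenced from 6 libraries of C57BL/6 cells, 1 per condition, made with a kit that marks strand, per the labels' protocols. Whole-number read counts per gene make up the deposited table. Tools named in the submitters' processing notes are STAR 2.4.0e, HTSeq, cutadapt and DESeq, with the mm10 build, and the strand setting is not given in the sources used here. The 4 growth factor columns are longer than the gene names and out of line with them. Whole rows were sorted by name without regard to case, 27 names turned into dates were left out, and each column was aligned by dynamic programming to both untreated columns. The BMP4 5 h column holds 19415 values. Of 19315 names, 18693 were kept at a margin of 5 cost units, holding 99.89% of its counts. Its log2 correlation with 0 h went from 0.12 over all rows as stored to 0.9895 over the kept names. The alignment itself drew on the 0 h column, so this rise is partly built in and is no check of the placement. The 176 names skipped by the alignment had fewer than 11 counts at 96 h. Names dropped by the margin were not all low: Tnnc1 had 1033 counts at 96 h.

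Size factors were TMM (edgeR 4.0.16, all 6 libraries) and ratios had exact Clopper-Pearson intervals at 95% (scipy 1.17.1). No count model was fitted, as each side has 1 library. The scripts were tested on simulated data, in which only genes with higher counts at 0 h were changed, by smaller folds than the largest here. That test does not cover genes low at 0 h with large ratios, such as Lox, Ltbp2 and Lrrtm2. Named genes were up to 15 a direction by counting interval with a mean of at least 2 CPM, up to 4 per list by size, and a fixed set; other genes were named after their values were seen. The pair and the 34 gene lists were chosen with earlier results of these data known. Some genes that the rule names are not reported here. The mitochondrial list had no member in the table. Positions are from GENCODE M21 (GRCm38, the same assembly as mm10).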

Additional observations from a re-analysis of the deposited data

How the results depend on the processing

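No paired analysis was possible because each condition has 1 library, and no library could be left out. With 2 CPM added in place of 0.5, 30 genes were called at least 2-fold higher and 2 lower, and 76 and 17 at 1.5-fold. With a filter of 5 CPM the 2-fold numbers were 26 and 1 and the 1.5-fold numbers 49 and 10, since fewer genes were tested. A placement margin of 10 units left 9 genes called lower at 2-fold, and gave no value for the adult beta globins. The fibroblast median was 0.68 with 2 CPM added and 0.70 at 5 CPM, and the immediate early median 0.48 at 5 CPM. Of 36 recomputed counts 27 stayed within 1.5 times, over 8 planned settings and 1 chosen after seeing the data (names alone sorted), and no median changed sign among those beyond 0.2. Counting error, with every count taken as a separate event, is small at this depth, and replicate error is unknown.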

Other observations

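The values of some low genes fell at 2 levels across the 6 libraries in an order that follows neither time nor growth factor. These genes were picked after their values were seen. Whether the reads came from the named genes or from genes overlapping them was not tested. B3galt2, a glycosyltransferase, read 1.20 CPM at 0 h, 0.0699 at 96 h, 0.0814 in BMP4 5 h, 1.17 in BMP4 11 h, 1.21 with FGF8 and 1.41 with FGF4. Smim18, a small membrane protein, read 1.53, 0.269, 0.149, 0.278, 1.56 and 0.1996 CPM in that order, and Gpr18, a G protein-coupled receptor, 1.24, 0.0662, 0.0994, 1.07, 0.0711 and 0.172 CPM.

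Rn45s, the ribosomal RNA precursor, read 328 CPM at 0 h, 412 at 96 h, 221 in BMP4 5 h, 1025 in BMP4 11 h, 668 with FGF8 and 320 with FGF4. Filip1l read 231, 376, 150, 593, 370 and 213 CPM, and Cmss1 244, 391, 164, 606, 384 and 224 CPM. All 3 genes had the lowest value in BMP4 5 h and the highest in BMP4 11 h. Filip1l lies inside Cmss1 on the opposite strand of chromosome 16. Their counts cannot be told apart here and are not separate observations. Mid1, at the edge of the pseudoautosomal region of the X, read 75.6, 46.5, 154, 113, 176 and 171 CPM, and Erdr1, a repeat-rich gene, 152, 103, 246, 270, 278 and 321 CPM.

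In the table as deposited, 68.5% of the counts from 1 to 20 at 0 h and 67.8% in BMP4 5 h were even numbers. The counting intervals treat every count as a separate event and would be too narrow if reads were counted in pairs. Whether they were was not tested.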
